A study of Homo sapiens with 6 samples.

Results

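The 10 genes followed here act on the shape, turnover and outer membrane of mitochondria, and were taken by symbol from a table of 58395 genes. They comprise 3 genes of fusion (MFN1, MFN2 and OPA1), 3 of fission (DNM1L, FIS1 and MFF), 3 of mitophagy (PINK1, BNIP3L and FUNDC1) and the outer membrane channel gene VDAC1. All 10 were found once in the table. Their RNA was measured by sequencing of polyadenylated RNA in 6 libraries of M14, an established human melanoma cell line. Every library came from cells kept without attachment so that they formed floating spheres. The spheres had been dissociated by mechanical means, and the cells had been stained for the B-cell antigen CD20 and sorted by flow cytometry into a CD20-positive and a CD20-negative fraction, with 3 libraries each. All libraries come from this single line, with no drug treatment or genetic change named in the labels. The labels number the replicates 1 to 3 but do not say whether these were separate cultures, so the spread between libraries may be technical. The question was whether RNA of these genes, taken as indicators of mitochondrial mass and dynamics, differed between the fractions.

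Mitochondria form a network that is joined by fusion and cut by fission. The mitofusins, encoded by MFN1 and MFN2, join outer membranes, and the dynamin-related GTPase encoded by OPA1 joins inner membranes and shapes the cristae. The dynamin-related GTPase encoded by DNM1L is recruited to the outer membrane by receptors such as the product of MFF and constricts the organelle, and FIS1 encodes a further outer membrane protein of the fission machinery. Damaged or surplus mitochondria are removed by autophagy, through a ubiquitin-dependent branch started by the kinase PINK1, or through outer membrane receptors such as BNIP3L and FUNDC1 that bind the autophagosome directly. VDAC1 encodes a pore of the outer membrane for metabolites, and its protein is widely used as a loading control for mitochondrial mass.

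The values are FPKM, that is, fragments per kilobase of exon relative to a library size set by the authors, so levels can be set side by side between genes. That size, as implied by the values, was 1.88e+07, 1.78e+07 and 1.98e+07 in CD20-negative and 1.51e+07, 1.60e+07 and 1.58e+07 in CD20-positive replicates 1 to 3. Recovered fragments were 17564543, 16666554 and 17915942, and 17479736, 15651183 and 16284985, in that order. Differences between fractions rest on the authors' size, and scaling to recovered fragments was not tested. The libraries held 15651183 to 17915942 recovered fragments, and a member gene held from 252 fragments (FUNDC1, CD20-positive replicate 3) to 6306 (VDAC1, CD20-negative replicate 1). MS4A1, which encodes CD20, measured 0.225 to 0.403 FPKM in the CD20-negative and 0.966 to 1.28 FPKM in the CD20-positive libraries. Of 8 melanocyte lineage markers, 6 stayed under 1 FPKM in every library, SOX10, MLANA and TYR among them, so these defining markers of the labelled lineage were absent or nearly so. The remaining markers were present, MITF at 1.72 to 2.34 FPKM and PMEL at 8.73 to 33.8 FPKM over the 6 libraries. The 8 markers summed to 11.1 to 21.4 FPKM in the CD20-negative and 17.4 to 35.7 FPKM in the CD20-positive libraries, mostly PMEL. Of 10 B-cell markers 1 reached a mean of 1 FPKM and 2, BANK1 and CR2, were listed at 0 throughout. Their sum, which includes MS4A1, the gene of the sorted antigen, was 2.44 to 3.77 FPKM in the CD20-negative and 4.69 to 4.93 FPKM in the CD20-positive libraries. MS4A1 was the only one of the 10 whose fractions did not overlap. Mitochondrially encoded genes took 4.25 to 5.73% of the fragments in the CD20-negative and 11.9 to 20.6% in the CD20-positive libraries. In such bulk samples fewer cells with a transcript and less of it per cell cannot be told apart.

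VDAC1 had the highest level of the 10 genes, with a mean of 90.6 FPKM over the 6 libraries, and FIS1 came next at 39.3 FPKM. VDAC1 lay above FIS1, and FIS1 above MFN2, the third in order, with no overlap between any of their libraries. From MFN2 downwards the ranges of neighbouring genes overlapped. FUNDC1 had a mean of 17.1, DNM1L of 12.7, BNIP3L of 10.1, MFF of 9.71, MFN1 of 9.37, OPA1 of 8.71 and PINK1 of 6.08 FPKM. DNM1L exceeded BNIP3L within each library, although the ranges over all libraries met.

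**Figure D1:**
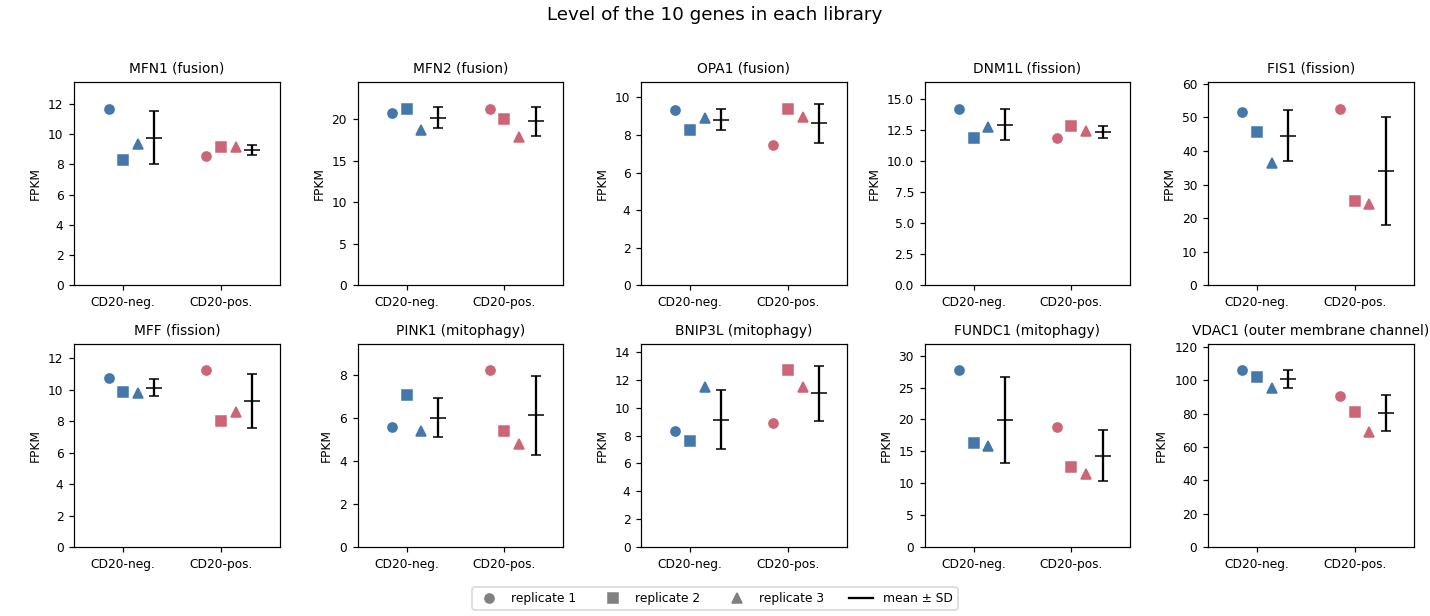
FPKM of each of the 10 genes (vertical axes from 0) in the CD20-negative (blue) and CD20-positive (red) libraries, with replicate numbers as symbols and bars for the mean ± SD of 3 libraries. The fractions are separated in VDAC1 and overlap in the other 9 genes.

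RefSeq windows upstream of a transcription start (GRCh38.p14) were found for 8 of the 10 genes, 13 windows in all, with PINK1 and BNIP3L without an entry. The stretches printed are those of the 3 genes with the most negative differences, FIS1, FUNDC1 and VDAC1, and of OPA1, whose difference was near 0. Each runs 5′ to 3′ in the direction of the gene and stops at an exon of the gene in GENCODE release 29. Capitals mark a match to a motif searched on both strands, either that of the nuclear respiratory factor NRF1 or the ETS-type core CCGGAAG. In FIS1 the stretch ends at an exon inside that core. FUNDC1 lies at chrX:44543002-44543109 (minus strand), FIS1 at chr7:101245086-101245331 (minus), VDAC1 at chr5:134005134-134005225 (minus) and OPA1 at chr3:193592958-193593143 (plus).
FUNDC1: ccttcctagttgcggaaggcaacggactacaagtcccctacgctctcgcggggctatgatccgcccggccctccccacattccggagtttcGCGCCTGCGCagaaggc
FIS1: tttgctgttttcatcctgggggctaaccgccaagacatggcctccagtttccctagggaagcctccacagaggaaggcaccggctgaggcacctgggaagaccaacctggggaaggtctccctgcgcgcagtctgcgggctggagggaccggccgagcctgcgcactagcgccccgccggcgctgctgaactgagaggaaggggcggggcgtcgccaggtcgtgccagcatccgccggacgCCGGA
VDAC1: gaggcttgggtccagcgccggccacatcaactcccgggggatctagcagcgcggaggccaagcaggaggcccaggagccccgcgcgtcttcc
OPA1: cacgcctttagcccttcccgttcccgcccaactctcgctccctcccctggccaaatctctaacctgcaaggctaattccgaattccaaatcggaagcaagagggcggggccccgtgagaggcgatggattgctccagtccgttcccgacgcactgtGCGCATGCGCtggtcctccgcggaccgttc

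The NRF1 motif was present in the windows of FUNDC1 and OPA1, 2 of the 13, and in 5.07% of all 35116 windows of 250 bases. The ETS-type core was present in 3 of the 13 windows, those of FIS1, MFN1 and 1 of the 4 of VDAC1, whose matching window lies in an exon and is not printed, and in 8.52% of all windows. The palindromes TGACGTCA (1.65% of all windows) and CACGTG (6.34%) were in 0 of the 13. The windows of VDAC1 overlap in part. A match is a description of the letters.

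In the comparison of fractions, none of the 10 genes passed the threshold of an adjusted p of 0.05. The fit across all genes was made with limma on log2(FPKM + 1), as CD20-positive minus CD20-negative, on the 13155 genes whose mean over the 6 libraries reached 1 FPKM, and all 10 genes passed that filter. The count was 0 higher and 0 lower of 10, and 0 at an unadjusted p under 0.05. Over all tested genes 0.0076% were called higher and 0% lower. A fit that kept the replicate number as a block also called 0 of the 10, where it called 3.19% of all tested genes higher and 2.64% lower. The median difference was -0.08 on the log2 scale for the 10 genes and 0.00 for all tested genes. The sign was negative in 8 of the 10 genes and in 6570 of the 13155. The fractions did not overlap in 1 of the 10 genes, VDAC1, which was lower, against 8.87% of all tested genes that were separated as higher and 6.14% as lower.

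**Figure D2:**
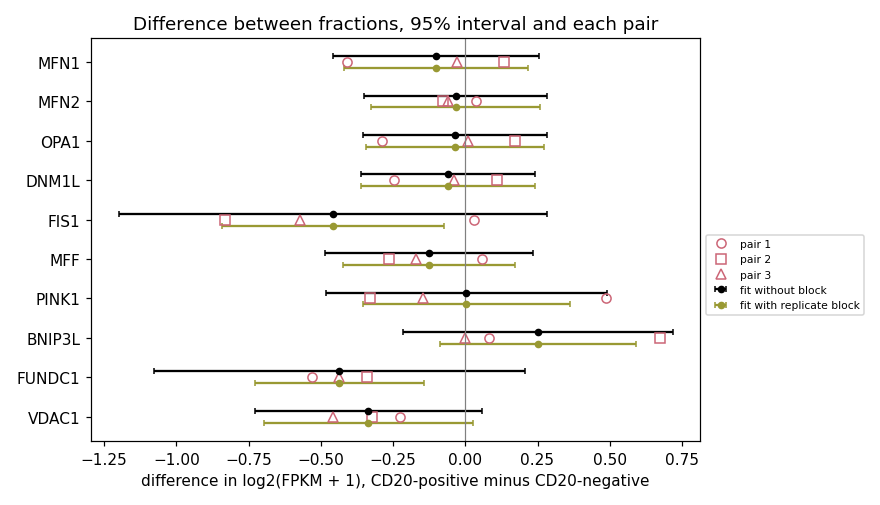
Difference in log2(FPKM + 1), CD20-positive minus CD20-negative, for each gene, with 95% intervals of limma fits without (black) and with (olive) the replicate block, and the difference within each same-numbered pair (open symbols). FUNDC1 and VDAC1 lie below 0 in the 3 pairs, and FIS1 lies below 0 in pairs 2 and 3 only.

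The 3 fusion genes had differences close to 0. Spans of the genes are given on GRCh38 from GENCODE release 29. MFN2 (chr1:11980181-12013514, plus strand) measured 20.7, 21.2 and 18.7 FPKM in CD20-negative replicates 1 to 3 and 21.3, 20.1 and 17.9 FPKM in the CD20-positive ones, so that the ranges overlapped. Its mean was 20.2 ± 1.32 against 19.8 ± 1.72 FPKM (SD, n = 3), a log2 difference of -0.03 with a 95% interval of -0.35 to 0.28. OPA1 (chr3:193593144-193697823, plus strand), the inner membrane fusion gene, measured 9.33, 8.24 and 8.88 FPKM in the CD20-negative and 7.47, 9.41 and 8.96 FPKM in the CD20-positive libraries. CD20-positive replicate 1 was the lowest and replicate 2 the highest of the 6, and the log2 difference was -0.04 (-0.35 to 0.28). MFN1 (chr3:179347692-179394931, plus strand) measured 11.7, 8.28 and 9.35 against 8.56, 9.17 and 9.15 FPKM. CD20-negative replicate 1 stood above the other 5 libraries, and the log2 difference was -0.10 (-0.46 to 0.25). The intervals still allow a difference of about the size of their bounds in these genes, so they do not show that the fractions were alike.

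Of the fission genes, FIS1 had the most negative difference of the 10 genes, and it rested on replicates 2 and 3. FIS1 (chr7:101239458-101252316, minus strand) measured 51.6, 45.6 and 36.5 FPKM in the CD20-negative and 52.6, 25.2 and 24.2 FPKM in the CD20-positive libraries. CD20-positive replicate 1 was the highest of the 6 libraries, and the other CD20-positive libraries were the lowest. The log2 difference was -0.46 ± 0.31 (SE; limma, adjusted p = 0.688), and -0.83 and -0.57 in pairs 2 and 3 against 0.03 in pair 1. Without CD20-positive replicate 1 the difference was -0.81 (limma, adjusted p = 0.0631), and without CD20-positive replicate 2 or 3 it was -0.29 or -0.27. The paired fit gave an adjusted p of 0.153 (unadjusted 0.023), and when restricted to the 4503 genes averaging 10 FPKM or more it gave 0.0317. With the gene's own spread the paired adjusted p was 0.54. That fit called 0 of the 13155 tested genes, so this p does not set FIS1 apart from any other gene. The paired fit without replicate 1 called FIS1 alone of the 10 genes, where it called 8.54% of all tested genes lower and 7.74% higher. It kept only pairs 2 and 3, those in which FIS1 was lower. The paired fit restricted to 10 FPKM or more called 2 of the 6 genes it tested, FIS1 and FUNDC1, both lower. Of all its genes it called 11.3% lower and 9.93% higher. In both fits the prior degrees of freedom were infinite (median over genes), so a typical gene's own spread had no weight in the call.

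DNM1L (chr12:32679200-32745650, plus strand), the fission GTPase, measured 14.2, 11.8 and 12.8 FPKM in the CD20-negative and 11.8, 12.8 and 12.4 FPKM in the CD20-positive libraries. The CD20-positive libraries lay within the range of the CD20-negative ones, and the log2 difference was -0.06 (95% interval -0.36 to 0.24). MFF (chr2:227325151-227357836, plus strand), which encodes a receptor for that GTPase, measured 10.7, 9.84 and 9.81 against 11.2, 8.02 and 8.60 FPKM. As in FIS1, CD20-positive replicate 1 was the highest library and the other CD20-positive libraries were the lowest, with a log2 difference of -0.13 (-0.49 to 0.24). The gene spans of DNM1L and YARS2 overlap on opposite strands, but their exons share 0 bases in GENCODE release 29.

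The mitophagy genes differed from each other in sign. FUNDC1 (chrX:44523639-44543001, minus strand), a receptor linked to mitophagy under low oxygen, measured 27.7, 16.2 and 15.8 FPKM in the CD20-negative and 18.9, 12.6 and 11.4 FPKM in the CD20-positive libraries. Replicate 1 was the highest within each fraction, and each CD20-positive library lay below the CD20-negative library of the same number. The ranges overlapped because CD20-positive replicate 1 exceeded CD20-negative replicates 2 and 3. The mean was 14.3 ± 4.01 against 19.9 ± 6.76 FPKM (SD, n = 3), and the log2 difference was -0.44 ± 0.27 (SE; limma, adjusted p = 0.662). Within pairs 1, 2 and 3 the difference was -0.53, -0.34 and -0.44. The paired fit gave an SE of 0.13 and an adjusted p of 0.08 (unadjusted 0.0069), and 0.0253 among genes averaging 10 FPKM or more. With the gene's own spread in place of one shared between genes, the paired adjusted p was 0.439. That fit called 0 of the 13155 tested genes, so this p does not set FUNDC1 apart from any other gene. Without CD20-negative replicate 1 the unpaired difference was -0.18.

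BNIP3L, a mitophagy receptor and a target of hypoxia-inducible factors, had the most positive difference of the 10 genes. BNIP3L measured 8.34, 7.58 and 11.5 FPKM in the CD20-negative and 8.88, 12.7 and 11.5 FPKM in the CD20-positive libraries. CD20-positive replicate 2 was the highest and CD20-negative replicate 2 the lowest library, while the libraries of replicate 3 were nearly level. The log2 difference was 0.25 ± 0.20 (SE; limma, adjusted p = 0.728), and 0.08, 0.67 and 0.00 in pairs 1, 2 and 3. Without replicate 2 of both fractions the paired difference was 0.04, and without CD20-negative replicate 2 or 3 the unpaired one was 0.14 or 0.41. The exons of BNIP3L, on chromosome 8, share 330 bases with PNMA2 on the other strand, which measured 0.346 ± 0.0848 and 0.701 ± 0.0598 FPKM (SD, n = 3) in the CD20-negative and CD20-positive libraries.

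PINK1 (chr1:20633455-20651511, plus strand), the kinase that marks depolarised mitochondria, measured 5.59, 7.06 and 5.38 FPKM in the CD20-negative and 8.23, 5.42 and 4.77 FPKM in the CD20-positive libraries. CD20-positive replicate 1 was the highest and replicate 3 the lowest of the 6. The log2 difference was 0.00 (95% interval -0.48 to 0.49), with 0.49 in pair 1 and -0.33 and -0.14 in pairs 2 and 3. PINK1-AS, an antisense gene within its span, had a mean of 0.385 FPKM, and whether the counting used strand is not given in the sources used here. BNIP3, the close relative of BNIP3L, chosen after its values were seen, measured 11.6, 19.97 and 25.9 against 13.5, 23.6 and 23.8 FPKM. Its replicate 1 was the lowest within each fraction, the opposite of FUNDC1.

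VDAC1 was the only one of the 10 genes whose fractions did not overlap, at the lower side. VDAC1 (chr5:133971915-134005133, minus strand) measured 106, 102 and 95.2 FPKM in the CD20-negative and 90.5, 81.0 and 69.1 FPKM in the CD20-positive libraries. The highest CD20-positive library stayed below the lowest CD20-negative one. The mean was 80.2 ± 10.7 against 101 ± 5.45 FPKM (SD, n = 3), a ratio of 0.794 (exact permutation test, two-sided, p = 0.1, the lowest value open to groups of 3). The log2 difference was -0.34 ± 0.17 (SE; limma, adjusted p = 0.606, and 0.27 in the paired fit), with a 95% interval of -0.73 to 0.06 and -0.23, -0.32 and -0.46 in pairs 1, 2 and 3. Of the 13 processed copies named after VDAC1, 2 reached a mean of 1 FPKM, VDAC1P1 (5.92) and VDAC1P8 (1.16), and reads can be split between such copies and the gene.

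The related channel gene VDAC2 showed the same separation as VDAC1 and VDAC3 did not, both chosen after their values were seen. VDAC2 measured 67.2, 57.5 and 60.1 FPKM in the CD20-negative and 54.8, 47.6 and 41.7 FPKM in the CD20-positive libraries. The fractions were separate, with a log2 difference of -0.36 that was not called in either fit. VDAC3 measured 35.4, 22.9 and 23.01 against 31.3, 19.6 and 18.4 FPKM, with replicate 1 the highest within each fraction. The ratio of VDAC2 to VDAC1 within a library, which does not depend on library scaling, was 0.610 ± 0.0392 in the CD20-negative and 0.599 ± 0.0102 in the CD20-positive libraries (SD, n = 3).

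The balance of fusion to fission RNA was computed within each library as the summed FPKM of MFN1, MFN2 and OPA1 over that of DNM1L, FIS1 and MFF. The ratio was 0.546, 0.561 and 0.626 in CD20-negative and 0.493, 0.840 and 0.796 in CD20-positive replicates 1, 2 and 3. CD20-positive replicates 2 and 3 lay above the CD20-negative libraries and replicate 1 below them, so that the fractions overlapped. Within pairs the ratio changed 0.904-, 1.496- and 1.27-fold. With MFN2 and FIS1, the highest gene of each side, left out, the ratio was 0.804 ± 0.0401 and 0.816 ± 0.106 (SD, n = 3), a log2 difference of 0.01 against 0.26 for the full ratio.

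RNA encoded by the mitochondrial genome moved apart from VDAC1 RNA. The summed level of the 13 mitochondrially encoded protein genes was 40211, 51819 and 43248 FPKM in the CD20-negative and 225680, 107477 and 158529 FPKM in the CD20-positive libraries. Divided by the VDAC1 level of the same library, it was 379, 509 and 454 in the CD20-negative and 2494, 1326 and 2294 in the CD20-positive replicates 1, 2 and 3. Each CD20-positive library exceeded each CD20-negative one, and the ratio of the group means on the log scale was 4.42-fold (exact permutation test, two-sided, p = 0.1, the smallest possible here). Within pairs it was 6.58-, 2.60- and 5.05-fold. Over the summed level of 23 nuclear genes of mitochondrial mass, in place of VDAC1, the ratio was 19.3 ± 2.89 and 85.8 ± 21.9 (SD, n = 3), 4.37-fold (exact permutation test, p = 0.1). In the fit without the block, 0 of the 13 mitochondrially encoded genes passed the threshold (limma, smallest adjusted p = 0.229). All 13 had an unadjusted p under 0.05, as did 713 higher and 497 lower of the 13155 tested genes. The fit with the block called 9 of the 13 higher, where it called 3.19% of all tested genes higher. These calls were lost in the paired fit with a correction for exon length and GC content (limma, smallest adjusted p of the 13 = 0.0512). The calls were also lost in the paired fit with each gene's own spread, which called 0 of the 13155. The differences themselves were not smaller after the length and GC correction, with a median log2 difference of the 13 of 1.82 before and 2.04 after it. The corrected paired fit called 0.448% of all tested genes higher. The part of the mitochondrial share in the values of the 10 genes was not tested.

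**Figure D3:**
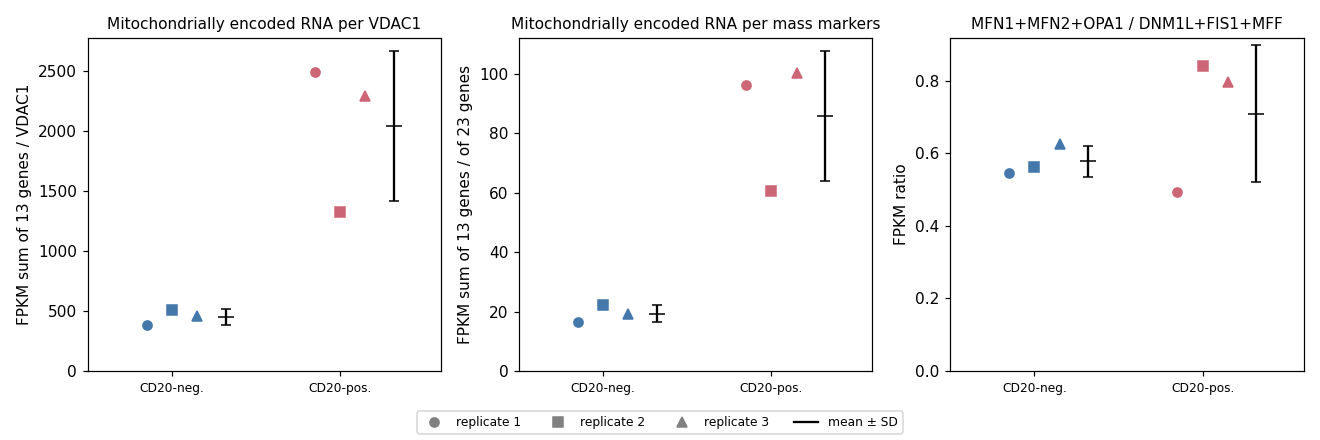
Ratios of FPKM within each library (linear axes from 0), with replicate numbers as symbols and bars for the mean ± SD of 3 libraries: the 13 mitochondrially encoded genes over VDAC1 (left) or over 23 mass markers (middle), and fusion over fission genes (right). The fractions are separate on the left and in the middle and overlap on the right, where CD20-positive replicate 1 is the lowest of the 6.

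The other genes of these pathways were described by 8 lists with 118 genes, of which 113 were tested, each gene counted once. The fit without the block called 0 of the 113, with 4 higher and 8 lower at an unadjusted p under 0.05. Among the 13155 tested genes that number was 713 higher and 497 lower. The paired fit called 1 higher and 5 lower of the 113, where it called 3.19% of all tested genes higher and 2.64% lower. These 6 calls were lost in the paired fit with the length and GC correction, which called 0 of the 113 and 0.448% of all tested genes higher and 0.175% lower. They were also lost in the paired fit with each gene's own spread, which called 0 of the 13155. The sign was negative in 75 of the 113, and their median difference was -0.14, both before and after the length and GC correction. The genes named below are the 2 with the smallest p of each list and the 6 called in the paired fit.

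Among the partners of fusion, 11 of 11 were tested, 3 positive and 8 negative with a median of -0.20. MIGA2, an outer membrane factor that promotes mitofusin activity, measured 9.98 ± 1.55 FPKM in CD20-negative and 13.3 ± 1.93 FPKM in CD20-positive libraries (SD, n = 3), without overlap. MTCH2, an outer membrane insertase, had a mean of 24.4 ± 6.10 FPKM in the CD20-negative libraries (SD, n = 3) and measured 33.7, 5.02 and 3.91 FPKM in the CD20-positive ones. As in FIS1, CD20-positive replicate 1 was the highest of the 6 and the other CD20-positive libraries the lowest. Of the 12 tested partners of fission the median was -0.06. DNM2, a dynamin, measured 11.4 ± 0.876 and 14.5 ± 1.21 FPKM, and INF2, a formin that assembles actin at fission sites, 19.4 ± 2.18 and 24.7 ± 1.88 FPKM (SD, n = 3), both without overlap and not called in either fit. After the length and GC correction the log2 difference was 0.10 in place of 0.31 for DNM2, 0.10 in place of 0.34 for INF2 and 0.19 in place of 0.38 for MIGA2. For MTCH2 it was -1.17 in place of -1.30.

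Genes of the cristae organising system, which holds the inner membrane folds that OPA1 also shapes, had 9 of 10 negative differences with a median of -0.26. The paired fit, which called 2.64% of all tested genes lower, called 2 of the 10 lower, CHCHD3 (22.2 ± 3.17 to 15.1 ± 4.70 FPKM, SD, n = 3; limma, adjusted p = 0.0426) and MICOS13 (23.1 ± 3.79 to 15.3 ± 8.09 FPKM, adjusted p = 0.0464). With the length and GC correction their paired adjusted p was 0.0759 and 0.0641. The correction moved the log2 difference from -0.56 to -0.47 for CHCHD3 and from -0.66 to -0.72 for MICOS13. The median of the 10 genes was -0.26 before and after it. CHCHD6 measured 7.73 ± 1.03 and 5.43 ± 1.14 FPKM and APOOL 6.17 ± 0.117 and 4.84 ± 0.331 FPKM, both without overlap and not called. After the correction the log2 difference was -0.52 in place of -0.45 for CHCHD6 and -0.29 in place of -0.30 for APOOL. Of the 23 mass markers 20 had a negative difference, with a median of -0.26, and 2 were called lower in the paired fit. CYCS, the electron carrier cytochrome c, went from 82.9 ± 19.97 to 48.3 ± 10.9 FPKM (limma, adjusted p = 0.0269), and TOMM22, an import receptor, from 48.0 ± 14.1 to 30.3 ± 17.2 FPKM (adjusted p = 0.0254). With the correction these p were 0.0618 and 0.0814. For CYCS the log2 difference was -0.77, and -0.70 after the correction. SDHA, a subunit of succinate dehydrogenase, measured 33.2 ± 4.06 and 44.9 ± 1.53 FPKM, higher without overlap and not called. Its log2 difference was 0.43, and 0.40 after the correction.

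In the ubiquitin-dependent branch of mitophagy 9 of 16 differences were positive and 7 negative, with a median of 0.02. TOMM7, a small import subunit that stabilises PINK1 on the outer membrane, was called lower in the paired fit, from 108 ± 1.601 to 49.6 ± 19.1 FPKM (SD, n = 3; limma, adjusted p = 0.00951, 0.286 without the block and 0.0705 with the block and the length and GC correction), whereas PINK1 itself had a difference of 0.00. RHOT2, an outer membrane GTPase for transport along microtubules, measured 29.4 ± 5.18 and 43.1 ± 9.90 FPKM, without overlap and not called, and its log2 difference was 0.53, and 0.31 after the correction. For TOMM7 the log2 difference was -1.18, and -0.97 after the correction. In the receptor-dependent branch 8 of 10 differences were negative, with a median of -0.14. PPTC7, a matrix phosphatase that limits the receptors BNIP3 and BNIP3L, measured 10.5, 10.7 and 11.5 FPKM in the CD20-negative and 8.11, 8.93 and 8.02 FPKM in the CD20-positive libraries, without overlap, and NIPSNAP2 8.70 ± 0.849 and 6.41 ± 1.23 FPKM with overlap. Neither was called.

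Among autophagosome genes the median of 21 tested genes was 0.01. ULK1, the kinase that starts autophagy and acts on FUNDC1, was called higher with the block, from 17.1 ± 3.22 to 25.5 ± 7.30 FPKM (SD, n = 3; limma, adjusted p = 0.0493, and 0.55 without the block). After the length and GC correction its log2 difference was 0.30 in place of 0.53, and the paired adjusted p was 0.1. ATG4B, a protease of the LC3 family, measured 13.9 ± 1.18 and 18.1 ± 1.87 FPKM and was not called. Its log2 difference was 0.36, and 0.17 after the correction. Regulators of mitochondrial biogenesis had 0 of 11 called in either fit and a median of -0.10. TFAM, the packaging and transcription factor of mitochondrial DNA, measured 15.6 ± 3.91 and 12.4 ± 1.40 FPKM, and POLRMT, the mitochondrial RNA polymerase, 14.02 ± 2.63 and 18.3 ± 4.69 FPKM. For POLRMT the log2 difference was 0.35, and 0.14 after the correction. For TFAM it was -0.28, and -0.26 after the correction.

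**Figure D4:**
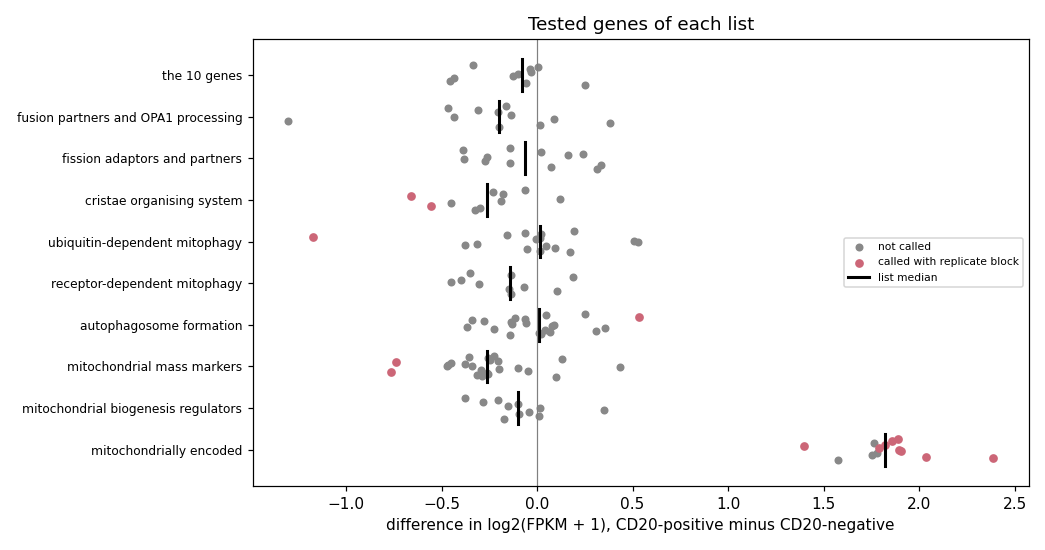
Difference in log2(FPKM + 1), CD20-positive minus CD20-negative, for each tested gene of each list (points, red where called with the replicate block) and the list's median (black bar); a gene on 2 lists is drawn on both. The 10 genes spread from -0.46 to 0.25, whereas the 13 mitochondrially encoded genes lie from 1.40 to 2.39.

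The 3 genes with the most negative differences were also those with the shortest exon length of the 10. FUNDC1 has 1399, FIS1 1795 and VDAC1 3163 bases of exon, and the other 7 genes have 4307 (BNIP3L) to 9052 (OPA1). All tested genes were split by exon length into 10 bins of equal size. The lowest median difference was -0.10, for the bin of 730 to 1862 bases, which holds FIS1 and FUNDC1. The highest was 0.04, for that of 7517 to 9744 bases, which holds OPA1. The bin of 2715 to 3506 bases, which holds VDAC1, had a median of -0.02, and the shortest, of 28 to 729 bases, -0.05. For the bin of 730 to 1862 bases the median was -0.02, -0.21 and -0.10 in pairs 1, 2 and 3. After a smooth function of exon length and GC content was removed from each library, the difference was -0.22 for FUNDC1, -0.43 for FIS1 and -0.23 for VDAC1. FIS1 stayed the most negative of the 10. The corrected paired fit gave adjusted p of 0.181, 0.126 and 0.227 in that order (limma).

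**Figure D5:**
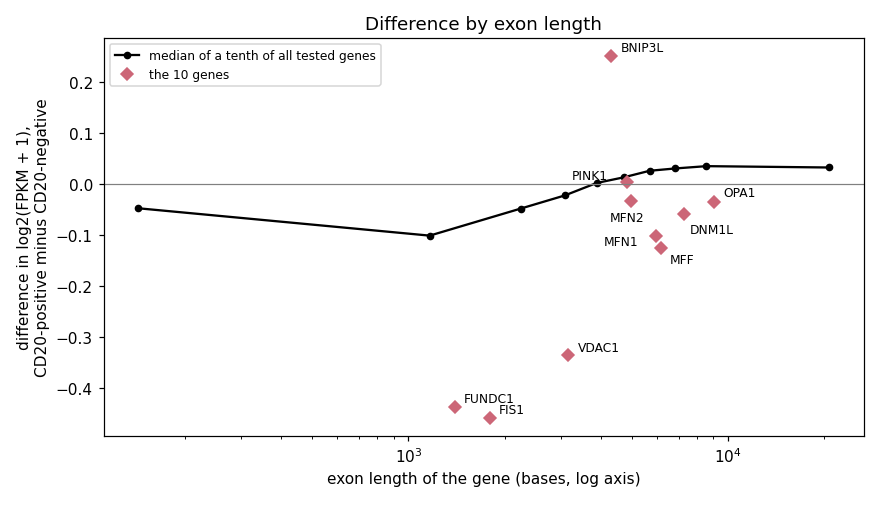
Difference in log2(FPKM + 1), CD20-positive minus CD20-negative, against exon length in bases (log axis) for the 10 genes (diamonds) and as the median of each of 10 length bins of all tested genes (line). FUNDC1, FIS1 and VDAC1 are the shortest and lowest of the 10, below the line at their length.

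Dividing each library by its summed FPKM, which includes the mitochondrially encoded genes, moved the median of all tested genes to -0.41 and led to calls of FIS1, FUNDC1 and VDAC1 as lower (limma, adjusted p = 0.0409, 0.0486 and 0.0369). That scaling called 10.3% of all tested genes lower and 0.213% higher. Relative to that median, their differences were -0.55, -0.51 and -0.44.

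Likeness of pattern was measured by Pearson's r on log2(FPKM + 1) over the 6 libraries, among 4206 protein-coding genes averaging 10 FPKM or more. The libraries share depth and the contrast, so r is a description only. VDAC1, the gene of smallest p among those lower, was most like TRIM14, RPIA and NDUFA1, with r of 0.997, 0.993 and 0.993, and 348 genes exceeded 0.9. BNIP3L, the gene of smallest p among those higher, was most like SAP30, GATAD1 and PSIP1, with r of 0.959, 0.959 and 0.950, and 14 genes exceeded 0.9.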

How the data were processed

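The submitters' processing notes name GRCh38 and the tools HISAT2, DESeq2 and featureCounts 1.5.0, with no roles. A TruSeq kit and a NovaSeq sequencer were used, per the labels' protocols. The header of the deposited table names no unit, and its values were taken as FPKM made by the authors: multiplied by exon length in GENCODE release 29, 98.1 to 98.6% of low values (up to 20 reads) were whole multiples of 1 step per library (tolerance 0.02 reads). The annotation matched 58275 of 58395 identifiers, and symbols came from a list of gene names.

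Differences were tested with limma 3.58.1 (R 4.3.3; trend, robust prior) on log2(FPKM + 1), on genes averaging 1 FPKM or more, with Benjamini-Hochberg adjustment over all 13155 genes. A filter of 10 FPKM, used in earlier work on these data, would have left 6 of the 10 genes. On this scale the change of low genes is understated. Fragments were recovered from FPKM and exon length for counts and for voom. The script was tested on simulated data with independent noise of a single size for all genes. That size was set below the average spread of these data, without replicate structure. The check therefore does not measure power or error at the spread of these libraries. The members and lists were chosen with earlier results of these data known. Named genes were the 10 members, MS4A1, the 2 genes of smallest p of each pathway list, as the fit without the block called none, and the 3 genes most alike to the members of smallest p in each direction. The other genes called with the block (CHCHD3, MICOS13 and TOMM22) and VDAC2, VDAC3 and BNIP3 were added after their values were seen.

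Deviations from group means correlated between same-numbered libraries at 0.67, 0.24 and 0.51 for replicates 1, 2 and 3, all above 0.1, and the replicate number was therefore used as a block in a second fit. This pairing comes from the data, not from the labels. CD20-negative replicate 2 correlated better with CD20-positive replicate 3 (0.43), and CD20-positive replicate 2 with CD20-negative replicate 3 (0.40). Deviations from a group mean sum to 0 over the 3 libraries, so these correlations are not independent. They cannot decide how replicates 2 and 3 pair.
Alternatives covered the pseudocount, the filter, scaling, the prior, the block, a length and GC correction, voom on recovered fragments and leaving out libraries.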

Additional observations from a re-analysis of the deposited data

How the results depend on the processing

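Of 232 values of single genes under 24 other settings, 205 kept their sign and stayed uncalled, 21 changed sign and 6 passed the threshold. The replicate block changed no call of the 10 genes. It moved the other pathway genes from 0 higher and 0 lower to 1 higher and 5 lower of 113, beside 3.19% and 2.64% of all tested genes. With the block and the length and GC correction or each gene's own spread, these counts were 0 and 0. With the block and a filter at 10 FPKM, 2 of the 6 members tested were called lower. Of the 59 pathway genes tested there, 3 were called higher and 8 lower. That fit called 9.93% of all its 4503 genes higher and 11.3% lower. Scaling to the FPKM total gave 3 members and 30 pathway genes lower, with 10.3% of all tested genes lower and 0.213% higher and their median at -0.41. Leaving out libraries gave 0 to 1 members lower (1, FIS1, in the paired fit without replicate 1), 0 to 3 pathway genes higher and 0 to 19 lower. The 3 and the 19 came from that same fit, which called 8.54% of all tested genes lower and 7.74% higher. The paired fit without replicate 3 gave 1 and 1, beside 174 higher and 157 lower of all 13155 tested genes. The fit without CD20-positive replicate 1 gave 0 higher and 4 lower. Of all 13155 tested genes it called 199 lower and fewer than that higher. Among the log2 differences that turned sign, scaling to the FPKM total without mitochondrial genes gave MFN2 0.0662, OPA1 0.0607 and DNM1L 0.0386. The FPKM total gave PINK1 -0.4436 and BNIP3L -0.2147. PINK1 was -0.0029 with TMM factors, -0.0132 with quantile normalisation and -0.0323 with the length and GC correction, with and without the replicate block. Leaving out libraries gave MFN1 -0.2041 to 0.0230 (-0.2196 to 0.0526 with the block), MFN2 -0.0876 to 0.0317 (-0.0697 to -0.0117 with the block), OPA1 -0.0953 to 0.0535 (-0.1384 to 0.0910 with the block), DNM1L -0.1179 to 0.0062 (-0.1433 to 0.0342 with the block), PINK1 -0.1961 to 0.1420 (-0.2370 to 0.1705 with the block). What moved these values was not tested. The fusion to fission ratio (0.26 on the log2 scale) and the ratio of mitochondrially encoded RNA to VDAC1 stayed positive under the settings run. Depth limits FUNDC1 and PINK1 most, at 252 to 729 fragments per library.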
